A study of Caenorhabditis elegans with 2 samples.

Results

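Small nuclear RNA (snRNA) genes make the RNA parts of the spliceosome and of the trans-splicing machinery. In their promoters, a short proximal element upstream of the start recruits the SNAPc complex, and a TATA box beside it is a feature of the snRNA genes read by RNA polymerase III, such as those of U6, while most others are read by RNA polymerase II. U1 RNA pairs with the 5′ splice site, U2 with the branch point, U4 carries U6 into the spliceosome in paired form, U5 holds the exon ends, and U6 forms part of the catalytic centre. In Caenorhabditis elegans, SL1 and SL2 RNAs donate the spliced leader that is joined to many mRNAs, and SmY RNAs are bound by Sm proteins and take part in trans-splicing. ZAG-1 is a zinc-finger homeodomain factor of the ZEB family, best known for its part in neuron differentiation.

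The genes described are all those of biotype snRNA in the WBcel235 annotation on the 6 nuclear chromosomes, apart from sls-2.1, sls-2.2 and sls-2.4, which the rule leaves out. That gave 126 genes of 46890 annotated. The experiment was ChIP-seq, in which DNA bound by a protein is pulled down with an antibody and sequenced, against eGFP-zag-1 in 2 biological replicates of whole L4 larvae of mixed sex. Both replicates are of the strain OP83, with unc-119(ed3) on III and the insertion wgIs83 directed at zag-1. There is 1 group, and no worms without the insertion are analysed here. The labels do not state the promoter or copy number of the insertion. A gene counted as listed when the summit of a region lay within 300 bp of its annotated start.

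The lists read were in the ce11 build, which is WBcel235. They hold 246 reproducible peaks (kept by the authors' irreproducible discovery rate analysis, IDR), 4010 pooled regions, 11750 regions of replicate 1 and 30000 of replicate 2. The last 3 lists are labelled as peaks together with background, so a region in them is not by itself a binding site. Signal is the authors' own value per region. It has no replicate error, and its scale differs between the lists, with medians of 14.8 in replicate 1 and 7.95 in replicate 2, so only ranks are set side by side. The lists hold no read counts, and read depth is unknown.

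The annotation gives most of these genes only a clone name, so they were grouped by sequence, at 75% identity or more to another member, and each group was called by a word known from 1 class of RNA. The words were adjusted after reading the sequences, so that each marked a group, and a match of letters is a description and not an assignment. The word ACTTACC, from the end of U1 that pairs with the 5′ splice site, marked 13 genes of 156 to 170 nt, among them sup-6 and sup-39. GTAGTA, the branch point word of U2, marked 19 genes of 185 to 187 nt. AGCTTTG, the first bases of U4, marked 5 genes of 142 to 144 nt, CCTTTTA, from the loop of U5, 12 genes of 117 to 126 nt, and ACAGAGA, the box of U6 that pairs with the 5′ splice site, 24 genes of 93 to 108 nt. The word itself was found in 12 genes of the U1 group, 18 of the U2 group, 5 of the U4 group, 11 of the U5 group and 22 of the U6 group. By name there were also 12 sls-1 genes (SL1 RNA), 15 sls-2 genes (SL2 RNA) and 10 smy genes (SmY RNA). The 16 others include mir-1831, which is annotated as an snRNA gene of 22 nt inside sup-39.

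Of the 126 genes, 3 had a reproducible peak (2.38%, against 0.412% of all annotated gene starts), and each belonged to a different group. They are W05B2.8 (III:10989679-10989780, plus strand, U6 word), F38E11.10 (IV:9444642-9444763, plus strand, U5 word) and C52E4.8 (V:11980118-11980261, plus strand, U4 word). The annotated RNA of each has at least 1 identical copy elsewhere in the genome.

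The copies differ in the sequence before the start. For each of the 3 genes, the 100 bases upstream are printed, followed by those of an identical copy that no list holds. Where there were several such copies, the one with the most unique surroundings was taken. In capitals are the words AACCC and TGTCNG, searched on both strands from 75 to 35 bp upstream, and TATATAA, searched from 40 to 20 bp upstream. All sequences are from the RefSeq copy of WBcel235, 5′ to 3′ on the gene's strand.
W05B2.8, III:10989579-10989678: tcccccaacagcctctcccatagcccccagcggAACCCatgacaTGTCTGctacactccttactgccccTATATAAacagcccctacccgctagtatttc
Y17G9A.90, IV:4866711-4866810: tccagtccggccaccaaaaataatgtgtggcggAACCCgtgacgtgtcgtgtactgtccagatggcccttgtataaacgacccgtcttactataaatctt
F38E11.10, IV:9444542-9444641: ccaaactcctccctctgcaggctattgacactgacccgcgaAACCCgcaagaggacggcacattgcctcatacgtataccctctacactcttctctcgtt
F38E11.11, IV:9464639-9464738, minus strand: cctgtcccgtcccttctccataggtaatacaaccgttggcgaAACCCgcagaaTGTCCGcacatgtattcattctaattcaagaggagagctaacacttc
C52E4.8, V:11980018-11980117: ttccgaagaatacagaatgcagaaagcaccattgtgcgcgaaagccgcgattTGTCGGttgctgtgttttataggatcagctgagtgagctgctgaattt
T11F9.15, V:11478048-11478147: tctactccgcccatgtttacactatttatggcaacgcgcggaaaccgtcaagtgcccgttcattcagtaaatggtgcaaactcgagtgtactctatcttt

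W05B2.8 was the strongest of the snRNA genes in every list. Its peak, III:10989478-10989817, had signal 72.4 and rank 66 of the 246 reproducible peaks, with the summit 31 bp upstream of the start, in the stretch that holds TATATAA. It ranked 63 of 11750 in replicate 1 (signal 47.5, summit 31 bp upstream) and 77 of 30000 in replicate 2 (signal 28.5, summit 37 bp upstream). Both replicates thus placed it in the top 1% of their regions, at 0.536% and 0.257%. No other annotated gene started within 300 bp of the summit, and the nearest protein-coding start, of the collagen gene col-94, was 1806 bp from the start of W05B2.8.

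C52E4.8 had signal 56.8 and rank 120 of the reproducible peaks, with the summit 19 bp upstream at V:11979929-11980268. In replicate 1 it ranked 94 (signal 40.9, summit 25 bp upstream) and in replicate 2 it ranked 2237 (signal 13.2, summit 15 bp upstream), so it stood in the top 0.800% of the first list and the top 7.46% of the second. The nearest protein-coding start was that of snr-4, an Sm protein gene, 395 bp from the start of C52E4.8. F38E11.10 had signal 53.2 and rank 151, with the summit 23 bp upstream at IV:9444449-9444788. It ranked 340 in replicate 1 (signal 27.3, summit 35 bp upstream) and 224 in replicate 2 (signal 21.6), where its summit lay 60 bp downstream of the start, inside the gene. The unnamed noncoding genes C52E4.14 and F38E11.24 also start within 300 bp of these summits, at 140 and 147 bp, and regions 340 bp wide cannot tell the starts apart.

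Each of the 3 genes had a second, weaker pooled region with its summit beyond the 3′ end of the gene. The second summits lay 201 bp from the first summit at W05B2.8 (signal 25.3, rank 2340 of 4010) and at F38E11.10 (signal 28.1, rank 1390), and 246 bp from it at C52E4.8 (signal 24.5, rank 2776). Replicate 1 listed the same pairs at 199, 211 and 205 bp, and replicate 2 listed the pair at W05B2.8 only, at 201 bp. Of all 246 reproducible peaks, 24 (9.76%) had another pooled summit within 300 bp.

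Identical copies of the 3 RNAs were mostly in no list, as were 93 of all 126 members. W05B2.8 has 13 identical copies, of which 11 had no summit in any list. The other 2, R07E5.16 and Y9C9A.111, were listed in replicate 2 alone, at ranks 23862 and 19251 of 30000. That list held 18.3% of all members and 21.3% of all annotated gene starts. F38E11.11, the single identical copy of F38E11.10 and also on IV, and T11F9.15, that of C52E4.8, were in no list. The 100 bases upstream were 45.0 to 61.0% identical between W05B2.8 and its copies, 54.0% between F38E11.10 and its copy and 49.0% between C52E4.8 and its copy. How reads that match several places were treated is not stated in these sources. Uniqueness was therefore measured as the share of 32-base words within 150 bp of a start that occur once in the genome. It was 71.9% at W05B2.8 and 67.0% at Y17G9A.90, 64.4% at F38E11.10 and 64.1% at F38E11.11, and 55.9% at C52E4.8 and 57.0% at T11F9.15. Y17G9A.90 is the most unique of the 11 copies of W05B2.8 in no list. These 11 lay between 21.5 and 67.0%, with a median of 34.1%, and 9 of them were under 50%, while the 2 copies listed in replicate 2 were at 59.6 and 67.4%. The part of uniqueness in which copies were listed was not tested.

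The pooled list held 10 of the 126 genes (7.94%, against 3.91% of all annotated gene starts). With as many of the strongest regions of replicate 2 alone, without replicate 1, it was 6 genes (4.76% against 3.53%), and with those of replicate 1 alone 12 (9.52% against 3.61%). Beside the 3 above they were F54D8.7, sls-2.3, sup-39 with mir-1831, sls-2.8, F56A12.5 and sls-2.7. F54D8.7 (III:5080798-5080898, minus strand, U6 word) had pooled signal 37.3 and rank 442 of 4010, with the summit 19 bp upstream. It ranked 708 in replicate 1 and 1147 in replicate 2 (signal 15.2), in the top 10% of both, and no other gene started within 300 bp of its pooled summit.

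sls-2.3 (II:5544164-5544273, minus strand), an SL2 RNA gene, had pooled signal 36.7 and rank 468, with the summit 54 bp upstream. Its ranks were far apart, at 462 in replicate 1 (signal 25.4) and 15117 in replicate 2 (signal 7.93), the middle of that list. The summits differed too, at 83 bp upstream in replicate 1 and 18 bp downstream in replicate 2. The noncoding gene C17C3.22 starts 154 bp from the pooled summit. sup-39 (II:6968394-6968558, minus strand), in the group with the U1 word and known for mutations that suppress splice site defects, had pooled signal 32.4 and rank 735, with the summit 51 bp downstream of the start. It ranked 480 in replicate 1 (signal 25.2) and was not in replicate 2. The same region counts for mir-1831, which starts 7 bp away, and also has the noncoding gene C15F1.14 and the piRNA gene 21ur-14704 within 300 bp.

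sls-2.8 (III:12250465-12250575, plus strand) had pooled signal 28.3 and rank 1342, with the summit 172 bp downstream of its start and 23 bp from the start of the protein-coding gene Y75B8A.23. It ranked 641 in replicate 1 (signal 23.5) and 5322 in replicate 2. F56A12.5 on V and sls-2.7 on I ranked 3703 and 3757 of 4010 in the pooled list, near its lower end. F56A12.5 was listed in replicate 2 alone of the replicates (rank 8858) and sls-2.7 in replicate 1 alone (rank 3510). The summit at sls-2.7 was also 253 bp from the start of the protein-coding gene W06D4.3, and the noncoding gene Y75B8A.49 starts 65 bp from that at sls-2.8.

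Replicate 1 listed 18 of the 126 genes (14.3%, against 8.58% of all genes), replicate 2 listed 23 (18.3% against 21.3%), and both listed 8 (6.35% against 3.42%). The reproducible list, with its 3 genes, held 2.38% of the members against 0.412% of all genes. The members thus stood above the share of all genes in 4 of these 5 counts and below it in replicate 2, whose list is the longest. The 5 counts share genes and are not separate results, since the pooled and IDR lists derive from both replicates. Their shares were below those of snoRNA genes in all 5 counts (2.60%, 15.9%, 22.3%, 33.2% and 13.9%, for IDR, pooled, replicate 1, replicate 2 and both) and below those of tRNA genes in all but the reproducible list (1.80%, 14.5%, 23.7%, 30.9% and 12.6%). Protein-coding starts gave 0.466%, 4.06%, 9.11%, 20.4% and 3.57%. No test was made of these shares, since genes with shared sequence or shared regions are not independent, so nothing in them is called particular to snRNA genes.

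**Figure D1:**
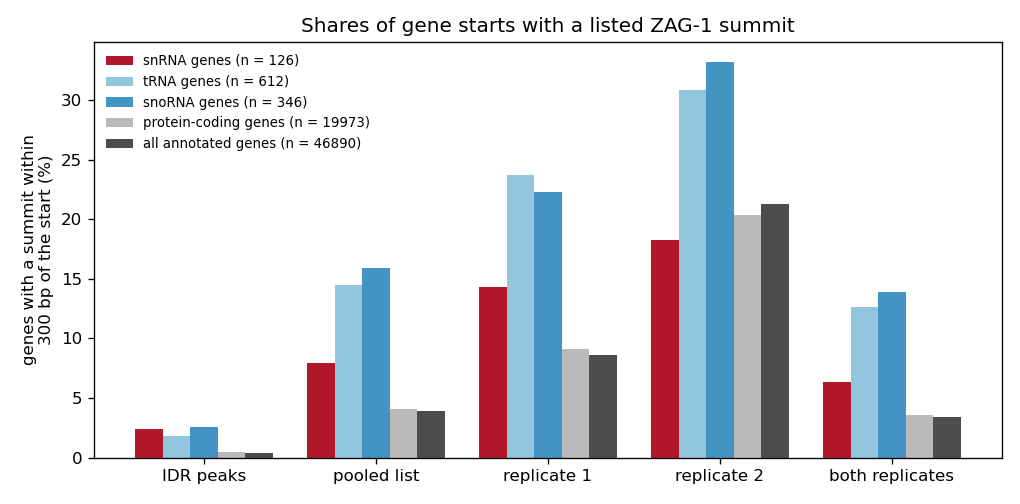
Share of gene starts (y axis, %) with a listed summit within 300 bp, for snRNA genes, tRNA genes, snoRNA genes, protein-coding genes and all annotated genes, in each list and in both replicate lists (x axis). Bars are shares of whole gene sets and carry no replicate error. The snRNA bar is at 7.94% against 3.91% for all genes in the pooled list, and at 18.3% against 21.3% in replicate 2.

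A gene counts as listed in both where each list has a summit within 300 bp of its start, and the summits can lie apart. Among the 8 genes that both replicates listed, 4 were in the top 10% of both lists, namely W05B2.8, C52E4.8, F38E11.10 and F54D8.7. The matching share for all genes in both lists is not given here. Taken as a ratio of the percentiles, the replicates differed most at sls-2.3 (3.93% in replicate 1 and 50.4% in replicate 2) and at C52E4.8, both nearer the top in replicate 1. By the same ratio, F38E11.10 and W05B2.8 stood furthest the other way, nearer the top in replicate 2. sup-6 (II:12944803-12944967) is a second gene known for suppressor mutations in the group with the U1 word. It ranked 4892 in replicate 1 (signal 15.4) and 19192 in replicate 2 (signal 7.20), at 41.6% and 64.0% of the lists. Its summits lay 198 bp downstream of the start in replicate 1 and 44 bp downstream in replicate 2. F42C5.12, in the group with the U5 word, ranked 6686 (signal 14.3) and 26986 (signal 6.10), at 56.9% and 90.0%. Its summits lay 178 bp downstream in replicate 1 and 1 bp upstream in replicate 2.

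**Figure D2:**
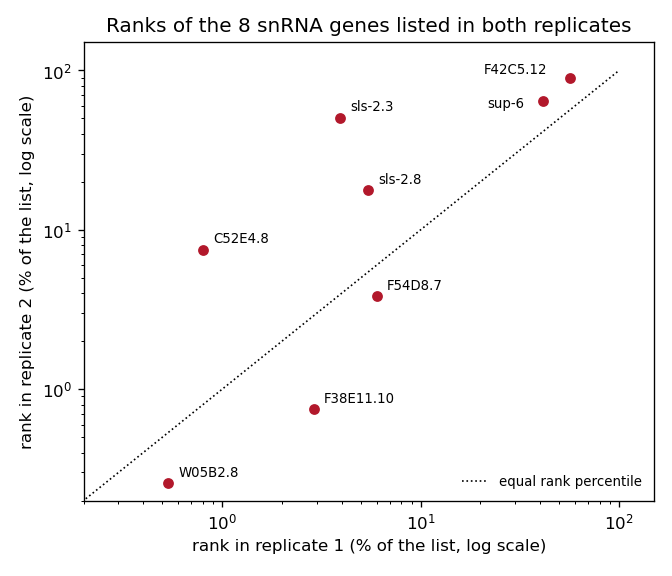
Rank of the strongest region at each snRNA gene listed in both replicates, as a percentage of the list's length, for replicate 1 (x axis) and replicate 2 (y axis), both on log scales. Points are genes, and the dotted line marks equal percentiles. W05B2.8 is at 0.536% and 0.257%, while sls-2.3 is at 3.93% and 50.4%.

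Genes listed in 1 replicate only numbered 10 in replicate 1 and 15 in replicate 2. The matching shares of all genes were not counted. Of all gene starts, 8.58% were in replicate 1, 21.3% in replicate 2 and 3.42% in both. For the members these shares were 14.3%, 18.3% and 6.35%. The larger count goes with the longer list, whose share of the members was below its share of all genes. Over the strongest region of each listed gene, genes in both replicates included, the median rank percentile was 21.1% in replicate 1 and 47.4% in replicate 2. In replicate 2, 11 of the 23 genes had a region in the lower 50% of the list. The same values over all listed gene starts are not given here, so these are not read as high or low. The weakest had signal 12.4 in replicate 1, at T11F9.16, and 5.81 in replicate 2, at Y54G9A.8. Among the higher ranked, named after their values were seen, were smy-9 (rank 2687 of 30000, signal 12.7, summit 279 bp downstream) and sls-2.18 (rank 3381, signal 12.2, summit 156 bp downstream) in replicate 2, and F32B5.9, with the U5 word, in replicate 1 (rank 1730 of 11750, signal 19.2, summit 148 bp upstream).

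The listed genes were counted by family, and differences between families were not tested. Of the group with the U2 word, 0 of 19 were in the IDR, pooled or replicate 1 lists and 4 were in replicate 2 alone, at ranks from 15220 to 29479. Of the group with the U1 word, 4 of 13 were in replicate 1, 1 in replicate 2 and 1 in the pooled list. Of the group with the U4 word, 2 of 5 were in replicate 1 and 1 in each other list. Of the group with the U5 word, 4 of 12 were in replicate 1, 2 in replicate 2 and 1 each in the pooled and IDR lists. Of the group with the U6 word, 2 of 24 were in replicate 1, 4 in replicate 2, 2 in the pooled list and 1 in the IDR list. The sls-1 genes, which stand in tandem on V, had 0 of 12 in any list. The sls-2 genes had 4 of 15 in replicate 1, 6 in replicate 2, 3 in the pooled list and 0 in the IDR list, and the smy genes had 4 of 10 in replicate 2 and 0 elsewhere. These counts stand beside backgrounds of 8.58% for replicate 1, 21.3% for replicate 2, 3.91% for the pooled list and 0.412% for IDR.

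In all, 33 of the 126 genes were in at least 1 list and 93 were in none. The share of all annotated genes in at least 1 list was not counted. The replicate 1 list held 8.58% of all gene starts, the replicate 2 list 21.3%, and both held 3.42%. For the members these shares were 14.3%, 18.3% and 6.35%, so the count of 33 is not read as high or low. The first of the 93 along the chromosomes were B0205.15, Y47H9A.2, W04G5.11, F15H9.5 and F15H9.6, all on I, the first with the U6 word and the others with the U2 word. Within 150 bp of the start, a median of 79.6% of 32-base words were unique for the 33 listed genes and 57.0% for the 93 others, against 100% for all annotated genes. Uniqueness was under 50% at 2 of the 33 and at 36 of the 93, and it was 0 at 15 of the 93. It moved with the families too. The median was 0% for sls-1, 36.7% for the group with the U2 word and 57.4% for that with the U6 word, against 92.6% for sls-2 and 99.1% for smy. Its part in the counts was not tested. Among the 88 members at 50% or more, 20.5% were listed in replicate 1 (8.85% of all genes at that level), 23.9% in replicate 2 (22.0%), 11.4% in the pooled list (4.03%) and 3.41% in the IDR list (0.423%). Among the 38 members under 50%, 2 were in replicate 2 and 0 in the other lists. The smy genes, with the highest median of the named families, were in no list but replicate 2.

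**Figure D3:**
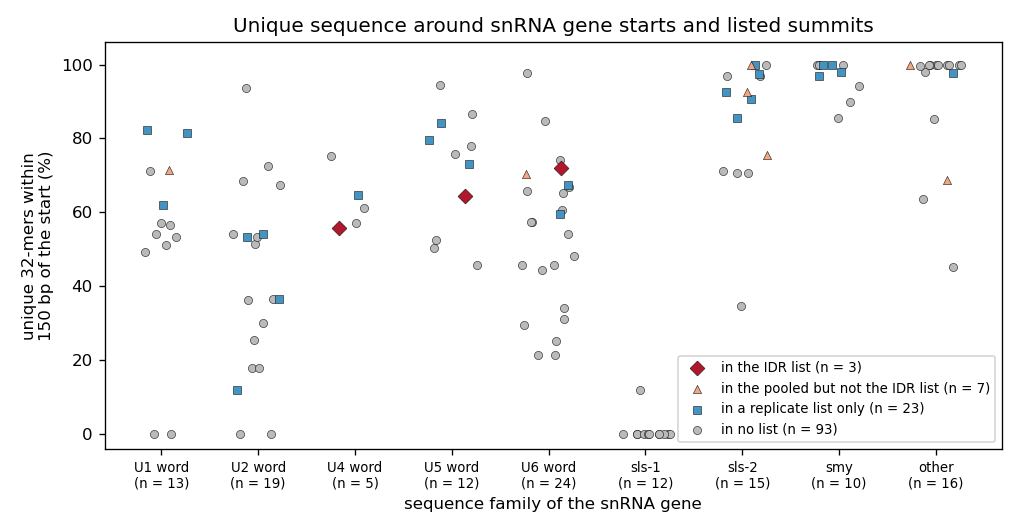
Share of 32-base words within 150 bp of the start that occur once in the genome (y axis, %) for each of the 126 snRNA genes (points), by family (x axis, horizontal scatter within a family is for display). Marker shape and colour give the highest list that holds the gene. The 3 genes in the IDR list lie at 55.9 to 71.9%, and sls-1 genes lie at 0 to 11.9%.

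Pooled summits lay close to the members' starts. Of the 10 genes, 8 had the summit within 60 bp of the start, from 54 bp upstream to 51 bp downstream, and the other 2, sls-2.7 and sls-2.8, had it 108 and 172 bp downstream. Within 150 bp the pooled list held 7.14% of the members against 2.16% of all genes, and within 1000 bp 11.9% against 9.13%. Per 100 genes, 3.97 pooled summits fell in the 100 bp before a member's start and 0 in each of the 4 bins of 100 bp upstream of that, against 0.795 for all genes in the first of these bins. Downstream, 2.38 pooled summits per 100 members fell from 0 to 100 bp, against 0.672 for all genes, and 3.17 from 100 to 200 bp, against 0.569. The single summit shared by sup-39 and mir-1831 is counted for each of them, in the bin from 0 to 100 bp and among the 8 genes. In replicate 1 the highest bin for the members was from 100 to 200 bp downstream, at 6.35, above the 5.56 in the 100 bp before the start. The bins count every summit, also the weaker second regions described above. In replicate 1 that bin holds those of W05B2.8, F38E11.10 and C52E4.8, at 168, 176 and 180 bp. In the pooled list it holds those of W05B2.8 and F38E11.10, at 170 and 178 bp. Over the listed genes, the summit lay a median of 37.5 bp away in the pooled list, while the medians were 84.0 bp for replicate 1 and 119 bp for replicate 2. In replicate 2 the members stood at 11.9% within 150 bp against 11.1% of all genes. The farthest summit inside the limit was at 172 bp in the pooled list (sls-2.8), 223 bp in replicate 1 (sls-2.6) and 294 bp in replicate 2 (R05D7.6). The nearest outside it were at 528 bp in the pooled list and in replicate 1 (both smy-1) and 302 bp in replicate 2 (ZK897.4), and at 623 bp from the nearest IDR summit (sls-2.3). Over all 126 genes the median distance to the nearest pooled summit was 10017 bp, against 10773 bp over all genes.

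**Figure D4:**
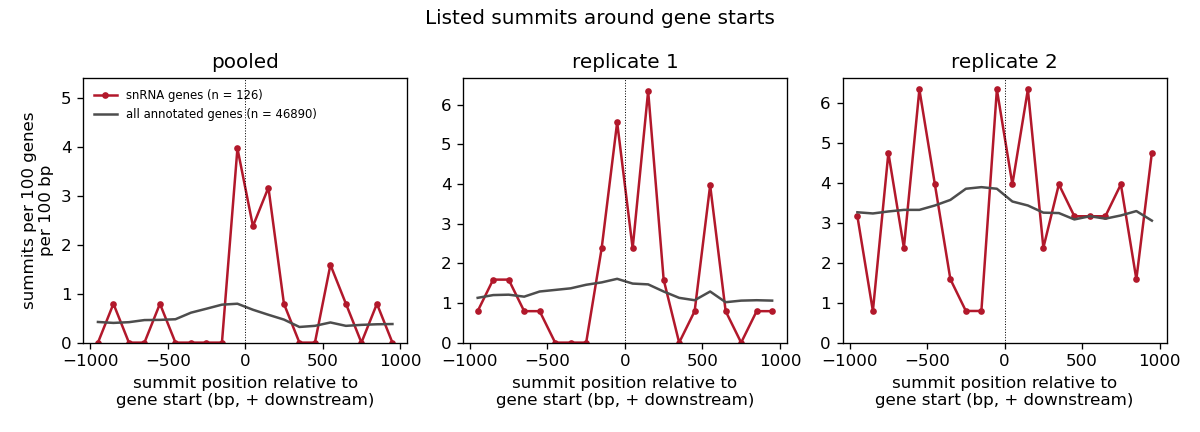
Summits per 100 genes in bins of 100 bp (y axis) against position relative to the gene start (x axis, bp, positive downstream in the sense of the gene), for the 126 snRNA genes and for all annotated genes, in the pooled and both replicate lists. In the pooled list the snRNA line reaches 3.97 in the bin before the start, where all genes are at 0.795. The y axes differ in range.

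The promoters of the members share words that the choice of genes did not use. These words were picked from the commonest 6-base words upstream of the members and then loosened after reading the promoters printed above, so their shares only describe the members and support nothing else. TGTCNG was found from 75 to 35 bp upstream of 77 members (61.1%), against 4.04% of protein-coding genes and 4.10% of all genes. AACCC was found in the same window of 60 members (47.6%), against 2.89% of all genes. TATATAA was found from 40 to 20 bp upstream of 16 members (12.7%, against 1.13%), and 15 of these 16 were among the 24 genes with the U6 word. TGTCNG stood before 18 of 19 genes with the U2 word and 14 of 15 sls-2 genes but 1 of 10 smy genes, and AACCC before 12 of 12 genes with the U5 word and 0 of 19 with the U2 word. W05B2.8 has all 3 words, as printed above, F38E11.10 has AACCC and C52E4.8 has TGTCNG.

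Listed and unlisted genes both had the words. Of the 77 members with TGTCNG, 15 (19.5%) were in replicate 1, 18 (23.4%) in replicate 2 and 7 (9.09%) in the pooled list. Of the 49 without it, 3 (6.12%) were in replicate 1, 5 (10.2%) in replicate 2 and 3 (6.12%) in the pooled list. Of the 93 members in no list, 51 (54.8%) had TGTCNG. The windows at summits were searched on both strands for words already known to be frequent at the peaks of these lists. CGTCTC was in 0 of the 3 member windows within 100 bp of an IDR summit, against 42.3% of all 246, ACGCAG in 0, against 33.7%, and GAGAGA in 1, against 49.6%. At the 9 distinct pooled summits of members, CGTCTC was in 2, against 12.2% of all 4010, ACGCAG in 2, against 10.5%, and GAGAGA in 2, against 20.4%. CACACA was in 0 of the 3 IDR windows, against 34.1%, and in 1 of the 9 pooled ones, against 14.6%. CAGGTA and CAGGTG, which ZEB-type zinc fingers bind, were in 0 of the 3 IDR windows, against 3.25% and 4.47% of all 246. Each was in 1 of the 9 pooled ones, against 4.16% and 4.71% of all pooled windows. With 3 and 9 windows these shares are coarse.

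Of the protein genes of the same machinery, 1 of 77 had a reproducible peak, beside 0.466% of all protein-coding starts, and the pooled list held 8 of 77 (10.4%, against 4.06%). No test was made of these shares. Most of the 15 Sm and LSm genes encode parts of the protein rings on snRNAs. Of the 15, 0 were in the IDR list, 2 in the pooled list, 4 in replicate 1 and 5 in replicate 2. The pooled ones were lsm-6 (signal 44.4, rank 262, summit 87 bp upstream), which ranked 304 in replicate 1 and 398 in replicate 2, and snr-6 (signal 28.6, rank 1270). Of 35 other spliceosome protein genes, 0 were in the IDR list, 4 in the pooled list, 4 in replicate 1 and 10 in replicate 2. The pooled ones were usp-39, a tri-snRNP component (signal 44.5), mog-4, an RNA helicase gene (41.6), snrp-27 (28.5) and snrp-40.2 (25.8).

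Of 27 genes for snRNA transcription, processing and assembly, 1 was in the IDR list, 2 in the pooled list, 5 in replicate 1 and 7 in replicate 2. The reproducible one was ints-4, a subunit gene of the Integrator complex, which cleaves the 3′ ends of snRNA precursors. Its peak had signal 66.9 and rank 81, with the summit 47 bp downstream of the start, and it ranked 53 in replicate 1 (signal 50.8) and 352 in replicate 2 (signal 19.4). The other pooled gene was sna-3 (signal 24.6, rank 2726), of the SL RNA particle. Shares of these lists stand beside 0.466%, 4.06%, 9.11% and 20.4% of all protein-coding starts in the IDR, pooled, replicate 1 and replicate 2 lists.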

How the data were processed

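Peak lists from ZAG-1 ChIP-seq in 2 biological replicates of L4 worms were analysed. Per the labels, fragments were 150 to 350 bp. The deposited text listings trace a replicate list to its own alignments plus 1 more file and the pooled list to the alignments of both replicates plus that file. The IDR list is labelled as thresholded. Aligner, caller, versions and threshold: not given in the sources used here. Signal values and the −log10 q scores are as deposited by the authors. Signal was used to rank regions within a list, and the scores were not used for any call. The ce10 lists were not used.

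Summits were placed on WBcel235 with Ensembl 115 annotation, and symbols were taken from RefSeq for all 126 genes. Ensembl gives several of these genes 1 shared name. Positions are 1-based. Transcripts were compared by edit distance over the longer length (edlib 1.3.9.post1) and joined at 75% identity. Work was done in Python 3.11.15, numpy 2.4.6 and pandas 2.3.3. Placement was tested on simulated summits at known distances.

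The members and lists were chosen with earlier results of these data known. The family words (those first tried for U1, U2 and U4 were changed, the first U1 word because it matched no member, and the U1, U4 and U5 words were later shortened with no change in counts), the 75% identity, the measure of unique sequence with its 50% limit, the distance between paired summits and the promoter words were chosen after seeing the data. The promoter words began as AACCCG and TGTCGG and were loosened, and TATATAA was added. Named were the genes in the IDR and pooled lists, those whose replicate ranks differed most, the first 5 in no list, and up to 4 genes of each protein list. Of the 84 protein names, 77 were in the annotation. No p-values were computed, because genes chosen with results known, in 1 group, leave no comparison between samples. Nothing in the labels says how the 2 replicates were cultured, so their spread may be partly technical. The sequences of the RNAs themselves are not reported here.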

Additional observations from a re-analysis of the deposited data

How the results depend on the processing

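No paired analysis was possible because both replicates belong to 1 group. Of 44 alternative counts, 34 were within 1.5 times the main count, including every setting of the IDR list. The limit of 50% unique sequence was chosen after seeing the data, and left the 5 counts at 3, 10, 18, 21 and 8. The others moved, and the cause was not tested except that a wider distance or a shorter list changes the count by its construction. In replicate 2 the count of 23 was 15 within 150 bp, 36 within 500 bp and 59 within 1000 bp. These were 11.9%, 28.6% and 46.8% of the members, against 11.1%, 32.4% and 52.0% of all genes. The replicate 2 count was 14 where the region had to overlap the start and 12 in the stronger 50% of regions. Shares of all genes at those settings are not given here. In replicate 1 the count of 18 was 32 within 1000 bp (25.4% of the members against 22.4% of all genes). In both replicates the count of 8 was 5 within 150 bp (3.97% against 1.36%) and 20 within 1000 bp (15.9% against 14.1%). It was 5 in the stronger 50% of regions. With as many of the strongest regions of 1 replicate in place of the pooled list, the count of 10 was 6 to 12. It was 6 without replicate 1 (4.76%, against 3.53% of all genes) and 12 without replicate 2 (9.52% against 3.61%), so the distance from the share of all genes was smaller without replicate 1. Likewise, in place of the IDR list the count of 3 was 2 to 2, with W05B2.8 in each, F38E11.10 without replicate 1 and C52E4.8 without replicate 2. That is 1.59% of the members each time, against 0.339% of all genes without replicate 1 and 0.403% without replicate 2. Depth is unknown, so a gene in no list is not shown to be unbound.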
